A study of Mus musculus with 30 samples.

Results

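The 44 genes described here are the heat shock proteins and the chaperones of the endoplasmic reticulum (ER), with the factors that sense or relay ER stress. They were taken by symbol, as 21 heat shock and 23 ER genes, from a table of 18240 genes. All 44 were found, and all passed the filter of a mean normalized count of at least 10, as did 16824 genes in all. Transcripts were measured by bulk RNA sequencing of mouse prefrontal cortex, in C57BL/6J animals analysed 40 days after birth. The groups are HT animals, heterozygous for Adnp, given fluoxetine (8 libraries), HT animals given lithium (7), HT animals given vehicle (7) and WT animals given vehicle (8), each with females and males. Fluoxetine is a serotonin reuptake inhibitor and lithium a mood stabilizer, and drug-treated WT animals were not analysed here. All animals share the strain and the tissue. Neither the lesion in the mutant allele nor the dose or duration of the drugs is given in the sources used.

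Heat shock proteins bind unfolded or partly folded protein in the cytosol and nucleus: HSP70 proteins work in cycles driven by ATP with HSP40 partners and nucleotide exchange factors, and HSP90 proteins act on later folding stages of kinases and receptors. Heat shock factor 1 (Hsf1) is held inactive by chaperones and, when unfolded protein accumulates, activates their genes. In the ER, the HSP70 protein BiP (Hspa5), disulfide isomerases and the lectin chaperones calnexin and calreticulin fold secreted and membrane proteins, and the sensors IRE1 (Ern1), PERK (Eif2ak3) and ATF6 start the unfolded protein response. Neurons hold high resting levels of constitutive HSP70 and HSP90, whereas the stress-inducible forms are low at rest.

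Depth ran from 23771758 to 34307061 reads per library over all genes. Values are given as normalized counts, which are reads divided by 1 size factor per library. The median Adnp count (with its range) was 2160 (1886 to 2469) in HT fluoxetine, 2227 (1889 to 2324) in HT lithium, 2250 (2076 to 2491) in HT vehicle and 1857 (1703 to 2228) in WT vehicle libraries. It was 0.26 higher on the log2 scale in libraries labelled HT vehicle than in those labelled WT vehicle (limma adjusted p = 0.00996). The part of the gene that the allele lacks is not given, so this count does not check the genotype, and HT and WT below are the names the labels give. All 9 cortical excitatory neuron markers were detected in the summed range 70473 to 106490 in HT fluoxetine, 66171 to 98083 in HT lithium, 77269 to 101823 in HT vehicle and 89216 to 112405 in WT vehicle libraries. The summed count of 7 olfactory bulb and neuroblast markers differed widely between libraries of one group, and was highest in HT lithium male 4 (18238) and HT vehicle female 1 (16698), against 1570 to 9908 in the other libraries. Other marker sums differed widely too. Striatal neuron markers summed to 4671 to 36949 in HT fluoxetine, 4596 to 13672 in HT lithium, 4748 to 22880 in HT vehicle and 4621 to 21312 in WT vehicle libraries. Oligodendrocyte markers summed to 56241 to 144042 in HT fluoxetine and 65278 to 148213 in WT vehicle libraries. Nothing in the labels says that each replicate is a separate mouse, so p-values measure the spread between libraries, which may be technical. In bulk tissue, fewer cells of a type and less RNA per cell cannot be told apart.

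The promoters of the 2 groups carried different known response motifs. RefSeq windows from 250 bases before to 50 bases after the start (GRCm38.p6) were at hand for 35 of the 44 genes, 15 heat shock and 20 ER genes. A gene with several windows counts as matched if any of them matches. A heat shock element, searched as GAANNTTC or TTCNNGAA on both strands, lay in 10 of the 15 heat shock genes (Bag3, Dnaja1, Dnajb4, Hspa1a, Hspa1b, Hspb1, Hspb8, Hspd1, Hspe1 and Hsph1). It lay in 1 of the 20 ER genes (Eif2ak3), against 17.0% of 27025 genes with a window. The ER stress element, a CCAAT box and a CCACG block set 9 bases apart, lay in 7 of the 20 ER genes (Calr, Canx, Creld2, Dnajc3, Hsp90b1, Hspa5 and Pdia6). It lay in 0 of the 15 heat shock genes, against 0.137% of all genes. ER stress element II was matched in Dnajb11 and Herpud1, against 0.0444% of all genes. The unfolded protein response element TGACGTGG was matched in none of the 35 genes and in 0.714% of all genes. The C/EBP-ATF response element TGATGNAA, known for the PERK arm, was matched in Chac1, Herpud1 and Trib3 and in 4.51% of all genes. The short CCAAT box was common, in 8 of 15 heat shock genes, 17 of 20 ER genes and 41.1% of all genes. It is part of the ER stress element, so these matches overlap.

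Windows are shown for 4 genes of each group whose values are described below, 5′ to 3′ in the direction of the gene, with matches to the heat shock element in capitals in the first 4 and matches to the ER stress element on either strand in capitals in the last 4.
Hspa1a (chr17:34972107-34972406, minus strand): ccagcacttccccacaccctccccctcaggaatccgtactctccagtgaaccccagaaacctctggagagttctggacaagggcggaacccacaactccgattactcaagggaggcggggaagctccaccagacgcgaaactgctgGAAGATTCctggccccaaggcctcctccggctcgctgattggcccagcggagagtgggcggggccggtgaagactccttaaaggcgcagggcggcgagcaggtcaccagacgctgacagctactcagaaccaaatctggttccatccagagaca
Hspb8 (chr5:116422815-116423114, minus strand): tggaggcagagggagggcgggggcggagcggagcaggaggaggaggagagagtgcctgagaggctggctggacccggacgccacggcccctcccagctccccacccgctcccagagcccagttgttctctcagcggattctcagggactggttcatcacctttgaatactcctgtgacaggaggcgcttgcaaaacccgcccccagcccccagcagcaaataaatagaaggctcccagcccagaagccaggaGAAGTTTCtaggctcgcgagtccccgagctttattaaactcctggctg
Hspe1 (chr1:55087898-55088197, plus strand): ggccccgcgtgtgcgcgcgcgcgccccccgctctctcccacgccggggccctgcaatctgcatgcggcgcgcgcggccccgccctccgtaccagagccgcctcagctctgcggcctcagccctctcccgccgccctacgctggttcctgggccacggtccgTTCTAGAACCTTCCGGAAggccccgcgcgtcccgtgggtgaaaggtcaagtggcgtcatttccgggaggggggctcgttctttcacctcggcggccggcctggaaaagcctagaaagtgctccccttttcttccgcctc
Hsph1 (chr5:149636287-149636586, minus strand): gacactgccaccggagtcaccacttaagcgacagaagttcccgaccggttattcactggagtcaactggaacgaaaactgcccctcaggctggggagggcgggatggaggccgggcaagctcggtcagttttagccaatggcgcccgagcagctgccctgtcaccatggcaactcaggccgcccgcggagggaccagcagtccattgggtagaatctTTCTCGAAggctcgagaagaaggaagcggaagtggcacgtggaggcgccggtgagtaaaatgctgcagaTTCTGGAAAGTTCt
Hspa5 (chr2:34771840-34772139, plus strand): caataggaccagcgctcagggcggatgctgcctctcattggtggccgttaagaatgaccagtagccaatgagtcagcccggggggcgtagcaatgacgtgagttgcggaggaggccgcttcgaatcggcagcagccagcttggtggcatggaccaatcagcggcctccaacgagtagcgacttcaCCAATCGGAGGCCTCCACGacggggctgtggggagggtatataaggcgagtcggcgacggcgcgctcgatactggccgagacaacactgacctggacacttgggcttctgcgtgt
Hsp90b1 (chr10:86705395-86705694, minus strand): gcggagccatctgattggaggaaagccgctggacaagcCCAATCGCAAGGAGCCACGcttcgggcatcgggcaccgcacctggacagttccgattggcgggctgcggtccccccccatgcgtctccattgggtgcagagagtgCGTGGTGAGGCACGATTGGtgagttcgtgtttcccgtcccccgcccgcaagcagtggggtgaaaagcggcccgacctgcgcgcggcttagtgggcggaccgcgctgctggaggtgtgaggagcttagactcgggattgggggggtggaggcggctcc
Pdia6 (chr12:17266339-17266638, plus strand): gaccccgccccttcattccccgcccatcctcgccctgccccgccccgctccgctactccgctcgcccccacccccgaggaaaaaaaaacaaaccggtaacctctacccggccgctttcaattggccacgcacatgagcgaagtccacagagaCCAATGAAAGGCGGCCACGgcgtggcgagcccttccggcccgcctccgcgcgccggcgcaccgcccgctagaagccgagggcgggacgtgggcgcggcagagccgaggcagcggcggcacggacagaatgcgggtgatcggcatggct
Calr (chr8:84846882-84847181, minus strand): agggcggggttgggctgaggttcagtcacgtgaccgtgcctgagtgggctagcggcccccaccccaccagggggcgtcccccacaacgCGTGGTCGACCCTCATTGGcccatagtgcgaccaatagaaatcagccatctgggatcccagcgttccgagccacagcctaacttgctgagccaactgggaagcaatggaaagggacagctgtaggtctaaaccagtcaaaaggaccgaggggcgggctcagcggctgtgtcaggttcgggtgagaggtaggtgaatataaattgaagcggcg

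In Hspe1 the 3 heat shock matches follow each other with shared bases, 89 to 72 bases before the start, and the same run serves Hspd1, which starts on the other strand. Hspa1a and Hspa1b have their match at the same distance, 104 to 97 bases before the start, while the match of Hspb8 lies just after its start, at bases 2 to 9. Among ER genes, Hspa5 has its ER stress element nearest to the start (65 to 47 bases before it) and Hsp90b1 carries 2. A match is a string of letters and not a measured binding site.

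**Figure D1:**
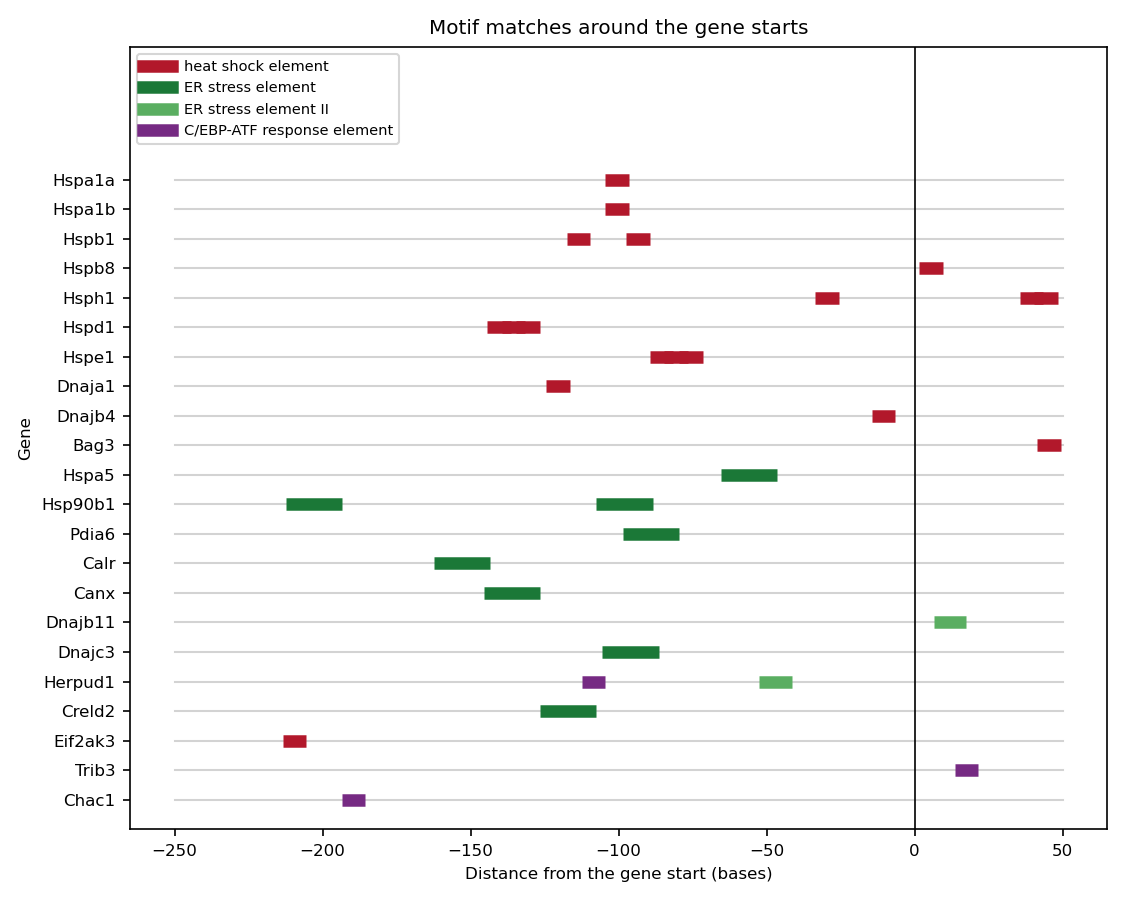
Positions of motif matches in bases from the gene start (0, vertical line) for genes of the 44. CCAAT boxes are not drawn, and genes with no other match are left out. Grey lines mark the 300-base window, and for genes with several starts the first window with a match is drawn. Heat shock elements (red) lie in heat shock genes and in Eif2ak3, and ER stress elements (green) lie in ER genes.

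At baseline, genes of the HSP70 and HSP90 families were the highest. Per kilobase of exon in WT vehicle cortex, Hspa8, the constitutive HSP70, stood at 12600 ± 813 normalized counts (SD, n = 8), and the HSP90 genes Hsp90ab1 and Hsp90aa1 at 12100 ± 925 and 7090 ± 382. The neighbours Hspa8 and Hsp90ab1 differed by less than their spread. The highest ER genes were calreticulin (Calr, 2640 ± 113), the ER HSP90 Hsp90b1 (1970 ± 50.5) and calnexin (Canx, 1590 ± 48.5), and Hspa5 stood at 1310 ± 86.4. The stress-inducible Hspa1a and Hspa1b stood at 161 ± 23.5 and 166 ± 28.3, far below Hspa8 and within their spread of each other and of Hspb8 (164 ± 26.3). The lowest were Hspb1 (101 ± 10.8), Bag3 (59 ± 13), Ern1 (47.8 ± 3.22) and Trib3 (5.52 ± 2.15). Of the 44 genes, 40 stood above the median of all tested genes with an annotated length, 113 per kilobase, and together they made up 0.785% of all normalized counts.

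**Figure D2:**
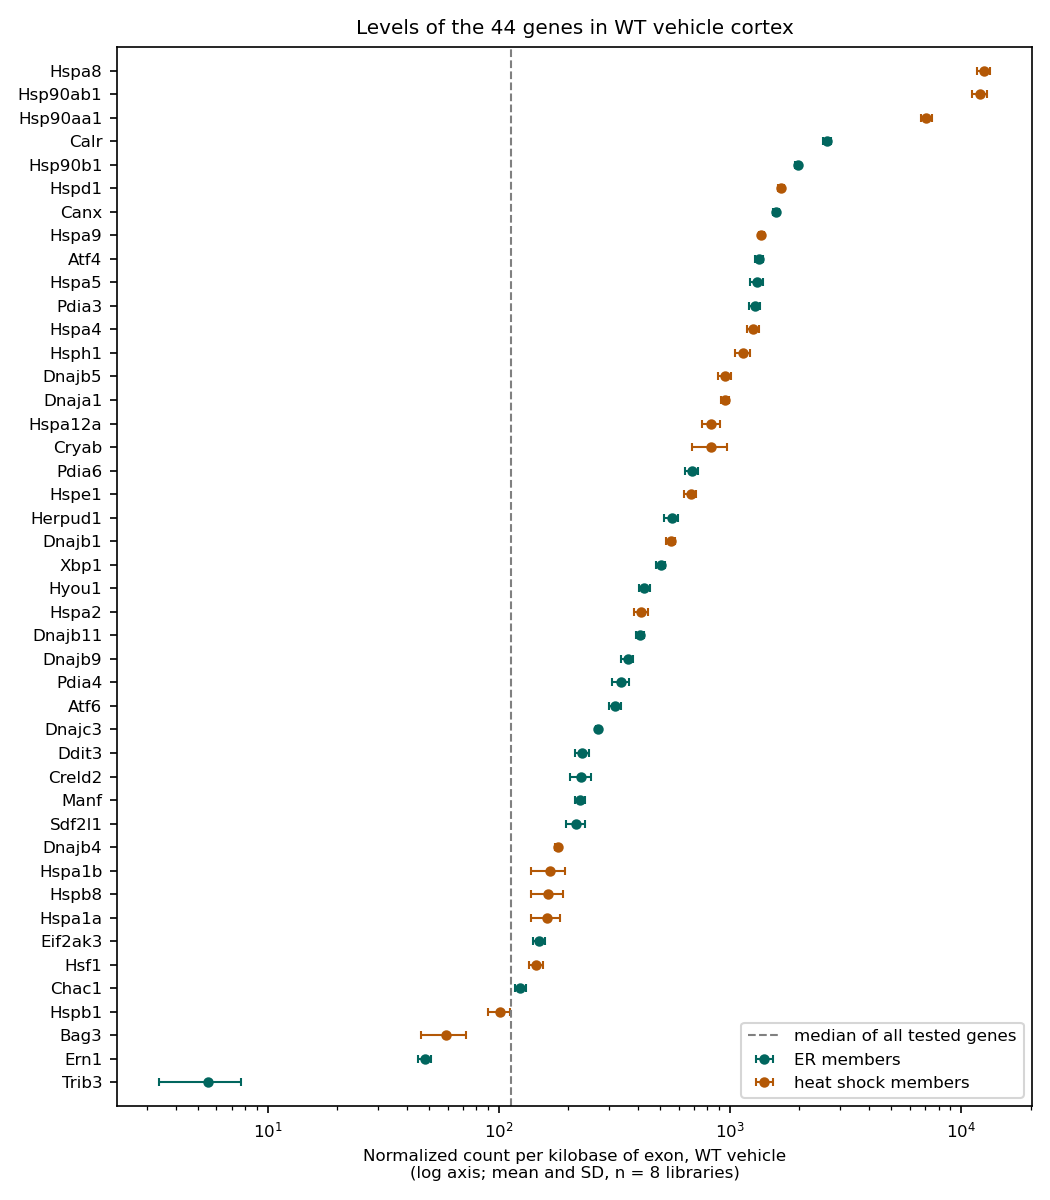
Normalized counts per kilobase of exon in WT vehicle libraries (log axis; points are means, bars are SD over 8 libraries), ordered by level, with heat shock genes in brown and ER genes in green. The 3 highest are Hspa8, Hsp90ab1 and Hsp90aa1, and 4 genes lie below the median of all tested genes (dashed line).

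Within groups, libraries agreed closely for most of these genes. The SD of log2 values within groups had a median of 0.115 over heat shock genes and 0.097 over ER genes, against 0.134 over all tested genes. These medians were not matched for level, and 40 of the 44 genes stood above the median level of all tested genes. It was smallest for the mitochondrial HSP70 Hspa9 (0.044) and for Hsp90b1 (0.052). It was largest for Trib3 (0.407), whose normalized counts were 6.85 to 21.8, then for Hspb1 (0.28), Cryab (0.257), Bag3 (0.251), Hspa1b (0.241) and Hspa1a (0.226).

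No heat shock or ER gene was called between HT vehicle and WT vehicle cortex. The test was limma on all 16824 genes with Benjamini-Hochberg adjustment, called at an adjusted p under 0.05 and averaged over the sexes. It called 0.731% of all genes and 0 of the 44, and edgeR and DESeq2 also called 0. Below an unadjusted p of 0.05 the 3 tools had 0 of the 44, where limma had 6.6% of all genes. The median log2 fold change was -0.013 in each group of genes and -0.001 over all genes. Intervals were narrow: the 95% interval lay within a 1.5-fold change either way for 43 of 44 genes, all but Trib3. Among heat shock genes the smallest p-values belonged to Hspa1b, -0.22 (95% interval -0.46 to 0.026), Hspa1a, -0.18 (95% interval -0.41 to 0.047), the small heat shock protein Hspb8, 0.12 (95% interval -0.043 to 0.27), and Hspe1, the mitochondrial HSP10, 0.064 (95% interval -0.033 to 0.16). Among ER genes they belonged to the pseudokinase Trib3, 0.39 (95% interval -0.05 to 0.84), the ER exchange factor Hyou1, -0.061 (95% interval -0.15 to 0.03), the BiP partner Dnajb9, -0.066 (95% interval -0.17 to 0.038), and the sensor Eif2ak3, -0.051 (95% interval -0.14 to 0.04).

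Fluoxetine in HT mice also left all 44 genes uncalled against HT vehicle, by limma, edgeR and DESeq2, where limma called 0.0357% of all genes. At an unadjusted p under 0.05 the 3 tools again had 0 of the 44, and limma had 2.63% of all genes. The 95% interval lay within 1.5-fold for 43 genes, all but Trib3. Values furthest from 0 relative to their error were those of Hsf1, 0.073 (95% interval -0.0047 to 0.15), Hspb8, 0.15 (95% interval -0.012 to 0.30), and the HSP40 genes Dnajb5, 0.12 (95% interval -0.011 to 0.24), and Dnajb1, 0.079 (95% interval -0.023 to 0.18). Of the ER genes these were Xbp1, the factor spliced by IRE1, 0.097 (95% interval -0.0036 to 0.20), Trib3, -0.30 (95% interval -0.74 to 0.14), Herpud1, which acts in ER-associated degradation, 0.06 (95% interval -0.033 to 0.15), and Atf4, 0.044 (95% interval -0.025 to 0.11). In the same libraries a list of 25 immediate early genes had 6 genes called, all higher in HT fluoxetine, with a median log2 fold change of 0.346. These 6 are all the genes that limma called here. The list was chosen with earlier results of these data known, so its calls are not an independent contrast.

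Lithium in HT mice gave the same count, 0 of 44 called by limma, edgeR and DESeq2 against HT vehicle, where limma called 0.0892% of all genes. At an unadjusted p under 0.05 limma had 2, edgeR 3 and DESeq2 4 of the 44, against 5.72% of all genes in limma. The 2 in limma were Hsph1, an HSP110 exchange factor for HSP70, -0.18 (95% interval -0.33 to -0.031), adjusted p = 0.858, and Bag3, an HSP70 co-chaperone of autophagy, 0.27 (95% interval 0.006 to 0.53), adjusted p = 0.873. In the same comparison the 7 meningeal fibroblast markers had a median log2 fold change of 0.437, with 7 positive and 4 at an unadjusted p under 0.05, and the 7 olfactory bulb and neuroblast markers had 1.212, with 7 positive and 0 at that p. None of these markers was called by limma, edgeR or DESeq2, and their part in the Hsph1 and Bag3 values was not tested. Next came Hspa8, -0.066 (95% interval -0.19 to 0.06), and Hspa12a, a distant HSP70 relative, -0.097 (95% interval -0.29 to 0.096). Among ER genes the order was Calr, -0.077 (95% interval -0.16 to 0.0029), Atf4, 0.068 (95% interval -0.0032 to 0.14), the disulfide isomerase Pdia4, -0.11 (95% interval -0.23 to 0.015), and Hspa5, -0.091 (95% interval -0.21 to 0.025). Intervals lay within 1.5-fold for 43 genes, all but Trib3. The immediate early list had 9 of 25 genes called here, all higher in HT lithium, with a median of 0.382.

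**Figure D3:**
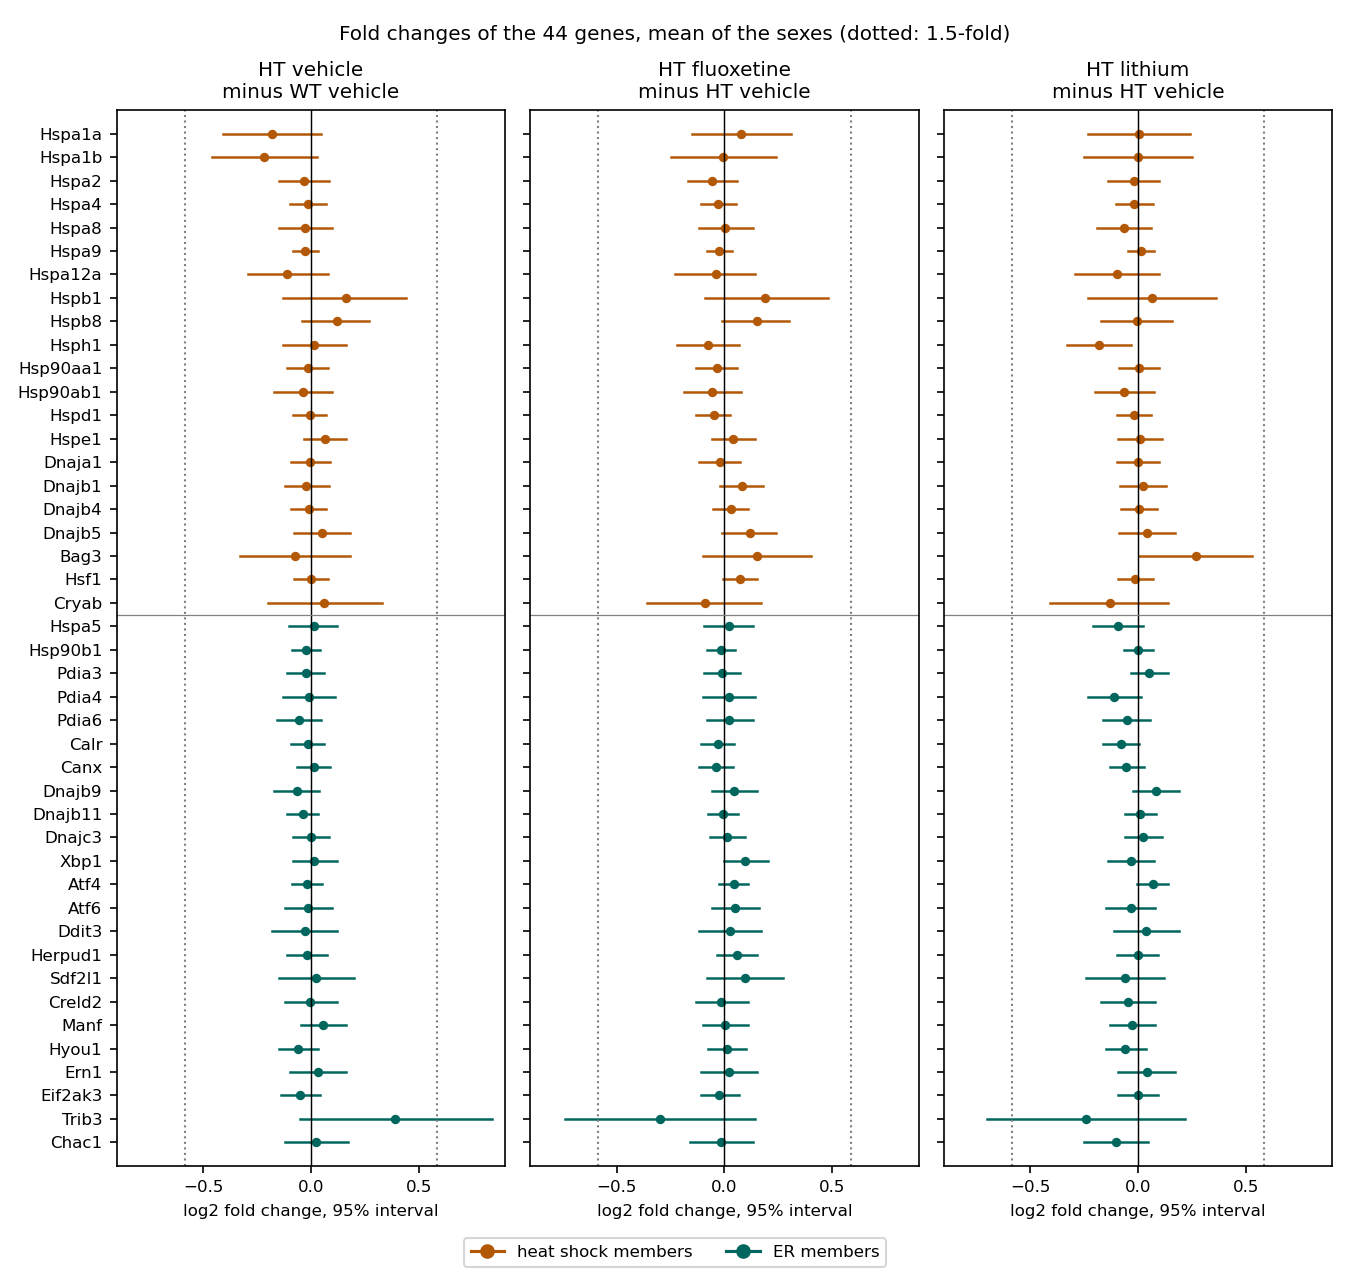
Log2 fold changes (points) with 95% intervals (lines) of the 44 genes for HT vehicle against WT vehicle, HT fluoxetine against HT vehicle and HT lithium against HT vehicle, mean of the sexes, heat shock genes above and ER genes below the grey line. Dotted lines mark 1.5-fold either way, and in each panel Trib3 alone has an interval that crosses one.

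Each drug-treated HT group was also set against WT vehicle, a comparison in which genotype and drug cannot be told apart and which shares its WT libraries with the genotype comparison. With fluoxetine, limma and edgeR called 0 of 44 and DESeq2 1 (Hspb8, adjusted p = 0.0475), where limma called 1.49% of all genes. At an unadjusted p under 0.05 they had 5, 5 and 7 of 44, and limma 12.1% of all genes. The leading values were Hspb8 at 0.26 (95% interval 0.11 to 0.41), adjusted p = 0.0791 in limma, Dnajb5 (0.16, adjusted p = 0.221), the small heat shock protein Hspb1 (0.35, adjusted p = 0.262) and Hspe1 (0.10, adjusted p = 0.353). Of the ER genes they were Xbp1 (0.11, adjusted p = 0.324), Eif2ak3 (-0.075, adjusted p = 0.499), the BiP-associated Sdf2l1 (0.12, adjusted p = 0.599) and Hsp90b1 (-0.039, adjusted p = 0.641). With lithium, limma, edgeR and DESeq2 called 0 of 44, where limma called 1.97% of all genes. Under an unadjusted p of 0.05 they had 6, 5 and 5, and limma 17.7% of all genes. There the leading values were Hsph1 (-0.17, adjusted p = 0.217), Hspa12a (-0.20, adjusted p = 0.238), Hspa1b (-0.22, adjusted p = 0.339) and Bag3 (0.20, adjusted p = 0.405). Among ER genes they were Hyou1 (-0.12, adjusted p = 0.162), Calr (-0.093, adjusted p = 0.201), the disulfide isomerase Pdia6 (-0.11, adjusted p = 0.256) and Pdia4 (-0.12, adjusted p = 0.278). All 4 of these ER values were below 0, and none passed the adjusted threshold.

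Between the drugs, HT fluoxetine against HT lithium, limma, edgeR and DESeq2 called 0 of 44, and limma called 0% of all genes. Each tool had 3 of 44 below an unadjusted p of 0.05, against 6.86% of all genes in limma. Among ER genes the smallest p-values were those of Xbp1 (0.13, adjusted p = 0.645), Pdia4 (0.13, adjusted p = 0.701), Hspa5 (0.11, adjusted p = 0.739) and Sdf2l1 (0.15, adjusted p = 0.758). Among heat shock genes they were those of Hsf1 (0.085, adjusted p = 0.699), Hspb8 (0.15, adjusted p = 0.75), Hsph1 (0.10, adjusted p = 0.827) and Hspa9 (-0.037, adjusted p = 0.848). All 44 intervals lay within 1.5-fold. In none of the 6 sex-averaged comparisons did the libraries of the 2 conditions fail to overlap for any of the 44 genes; over all tested genes the share without overlap was 0.452% for genotype, 0.0535% for fluoxetine and 0.0773% for lithium. It was 0.565% for fluoxetine and 0.725% for lithium against WT vehicle, and 0.0594% between the drugs.

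The inducible HSP70 pair Hspa1a (chromosome 17, 34969190 to 34972156, minus strand) and Hspa1b (chromosome 17, 34956436 to 34959238, minus strand), GRCm38, had 9951 bases between them. Of the 31-base words of the Hspa1a transcript, 63.8% also occur in Hspa1b, and 67.6% the other way round, so the split between them is uncertain; 19% of the exons of Hspa1a also overlap the antisense gene Gm20481. Median Hspa1a counts (with ranges) were 432.3 (388.2 to 509.8) in HT fluoxetine, 435.7 (368.7 to 492.5) in HT lithium, 443.2 (307.6 to 520.6) in HT vehicle and 471.5 (382.8 to 584.7) in WT vehicle. Those of Hspa1b were 371.9 (338.4 to 462.4) in HT fluoxetine, 397.9 (314.9 to 504.1) in HT lithium, 402.4 (300.0 to 495.8) in HT vehicle and 469.1 (349 to 552.5) in WT vehicle. All conditions overlapped for both genes. Because the split is uncertain, the sum of the pair was tested as 1 value. HT vehicle minus WT vehicle came to -117 counts, or -12.5%, and an exact 2-sided permutation test within sexes gave p = 0.139 (adjusted over 3 comparisons 0.418; the smallest p it can give is 0.000408). In HT mice the difference from vehicle was 12.3 counts with fluoxetine (exact permutation p = 0.851) and -5.24 counts with lithium (exact permutation p = 0.942), both inside the spread between libraries.

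Hspa8 had medians of 54268 (47602 to 58072) in HT fluoxetine, 50585 (42454 to 57594) in HT lithium, 52787 (44797 to 58034) in HT vehicle and 53764 (48560 to 60045) in WT vehicle. For Hsp90ab1, the constitutive HSP90, they were 35258 (29122 to 37272) in HT fluoxetine, 33762 (27736 to 39385) in HT lithium, 36049 (29631 to 37831) in HT vehicle and 36442 (31930 to 40242) in WT vehicle. For Hsp90aa1, the inducible HSP90, they were 26790 (24536 to 28642) in HT fluoxetine, 27247 (24620 to 31228) in HT lithium, 27477 (24848 to 29746) in HT vehicle and 27906 (26064 to 30699) in WT vehicle. Conditions overlapped for all 3, and in each the lowest value of the HT lithium group belonged to male 4. Hsph1 (chromosome 5, 149614287 to 149636376, minus strand) had medians of 8213 (7097 to 8710) in HT fluoxetine, 7069 (5633 to 8591) in HT lithium, 8586 (6746 to 9088) in HT vehicle and 8511 (7456 to 9381) in WT vehicle. Its lowest libraries of all 30 were HT lithium male 4 (5633) and HT vehicle female 1 (6746), the 2 with the highest olfactory bulb marker sums. Its lithium log2 fold change of -0.18 was -0.13 without HT lithium male 4, -0.23 without HT vehicle female 1 and -0.18 without both, with 1 low library then gone from each side.

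The HSP40 gene Dnajb1, which stimulates the ATPase of HSP70, had medians of 1820 (1758 to 2025) in HT fluoxetine, 1800 (1603 to 2006) in HT lithium, 1711 (1539 to 1981) in HT vehicle and 1768 (1689 to 1875) in WT vehicle. Hsf1 had 1085 (1025 to 1131) in HT fluoxetine, 1028 (930.2 to 1054) in HT lithium, 1048 (905.5 to 1139) in HT vehicle and 1041 (927.3 to 1154) in WT vehicle. Bag3 (chromosome 7, 128523616 to 128546981, plus strand), a target of Hsf1, had 156.6 (132.7 to 171.8) in HT fluoxetine, 168.3 (136.9 to 236.1) in HT lithium, 152.6 (95.7 to 165.7) in HT vehicle and 159.1 (102.2 to 193.1) in WT vehicle. The highest Bag3 count of all libraries, 236.1, was that of HT lithium male 4. Cryab, the small heat shock protein alpha B-crystallin, had 1187 (913.3 to 1601) in HT fluoxetine, 1116 (986.4 to 1426) in HT lithium, 1259 (940.0 to 1441) in HT vehicle and 1219 (872.6 to 1497) in WT vehicle. For these 4 genes every condition overlapped every other. The exons of Cryab are overlapped over 17% by the antisense gene Hspb2. The libraries are stranded by the labels' protocols, but whether counting used the strand is not given in the sources used here, so the Cryab count may hold Hspb2 reads.

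In the ER, Hspa5 (chromosome 2, 34771970 to 34777547, plus strand) had medians of 5677 (4923 to 6859) in HT fluoxetine, 5171 (4603 to 6280) in HT lithium, 5530 (5168 to 6140) in HT vehicle and 5579 (4827 to 6020) in WT vehicle. Hsp90b1, which folds receptors and integrins, had 7649 (7340 to 8291) in HT fluoxetine, 7696 (7264 to 8871) in HT lithium, 7822 (7291 to 8247) in HT vehicle and 7998 (7586 to 8188) in WT vehicle. Calr, a calcium-binding lectin chaperone, had 7359 (6522 to 8373) in HT fluoxetine, 6891 (6067 to 8190) in HT lithium, 7406 (7300 to 7807) in HT vehicle and 7548 (7244 to 8292) in WT vehicle. The 4 conditions overlapped for all 3, and HT lithium male 4 held the lowest of the 30 counts for Hspa5 and Calr. Among genes that the unfolded protein response is known to induce, Pdia4 had 807.3 (715.1 to 953.4) in HT fluoxetine, 721.8 (691.6 to 884.1) in HT lithium, 791.4 (757.6 to 875.8) in HT vehicle and 795.2 (723.4 to 908.4) in WT vehicle. Sdf2l1 had 261.5 (199.9 to 351.5) in HT fluoxetine, 232.6 (195.7 to 271.5) in HT lithium, 249.3 (212.9 to 274.7) in HT vehicle and 243.8 (192.5 to 262.1) in WT vehicle. No condition stood apart for either gene. Creld2, a secreted ER stress protein, had 301 (264.4 to 370.3) in HT fluoxetine, 292.8 (256.9 to 348.6) in HT lithium, 308.2 (294.7 to 330.3) in HT vehicle and 302.7 (270.0 to 371.9) in WT vehicle. Manf, another, had 818.9 (773 to 967) in HT fluoxetine, 792 (741 to 928.3) in HT lithium, 810.3 (752.6 to 918) in HT vehicle and 792.9 (726.6 to 845.6) in WT vehicle. Hyou1 had 2975 (2633 to 3306) in HT fluoxetine, 2867 (2464 to 3034) in HT lithium, 2941 (2689 to 3168) in HT vehicle and 3115 (2836 to 3294) in WT vehicle. All conditions overlapped here too.

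Of the 3 sensors, Ern1 had medians of 404.9 (341.8 to 458.5) in HT fluoxetine, 407.1 (348.9 to 507.8) in HT lithium, 390.7 (367.5 to 455.5) in HT vehicle and 386 (350.5 to 419.8) in WT vehicle. Eif2ak3 had 865.9 (780.0 to 892.6) in HT fluoxetine, 873.3 (799.5 to 962.5) in HT lithium, 876.4 (820.9 to 910.0) in HT vehicle and 913.9 (842.6 to 956.1) in WT vehicle. Atf6 had 3052 (2711 to 3336) in HT fluoxetine, 2871 (2431 to 3035) in HT lithium, 2820 (2668 to 3281) in HT vehicle and 2883 (2739 to 3265) in WT vehicle. The 4 conditions overlapped for each sensor. Of the relays downstream, Xbp1 had 1756 (1552 to 2040) in HT fluoxetine, 1555 (1486 to 1865) in HT lithium, 1653 (1486 to 1794) in HT vehicle and 1621 (1526 to 1761) in WT vehicle. Atf4, the factor translated when PERK is active, had 3215 (3135 to 3303) in HT fluoxetine, 3169 (3032 to 3722) in HT lithium, 3103 (2908 to 3271) in HT vehicle and 3098 (3004 to 3337) in WT vehicle. Ddit3, which encodes CHOP, a factor of prolonged ER stress, had 401.2 (295.9 to 451) in HT fluoxetine, 377.5 (371.3 to 500.8) in HT lithium, 383.4 (349.4 to 421.4) in HT vehicle and 394 (351.9 to 444.2) in WT vehicle. The conditions overlapped for all 3 relays. These are transcript counts, which hold neither the splicing of Xbp1 nor the cleavage of ATF6 nor the translation of Atf4. The remaining 20 genes are Hspa2, Hspa4, Hspa9, Hspa12a, Hspb1, Hspb8, Hspd1, Hspe1, Dnaja1, Dnajb4, Dnajb5, Pdia3, Pdia6, Canx, Dnajb9, Dnajb11, Dnajc3, Herpud1, Trib3 and Chac1; in the genotype, fluoxetine and lithium comparisons their log2 fold changes ran from -0.30 to 0.39, both ends being Trib3.

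**Figure D4:**
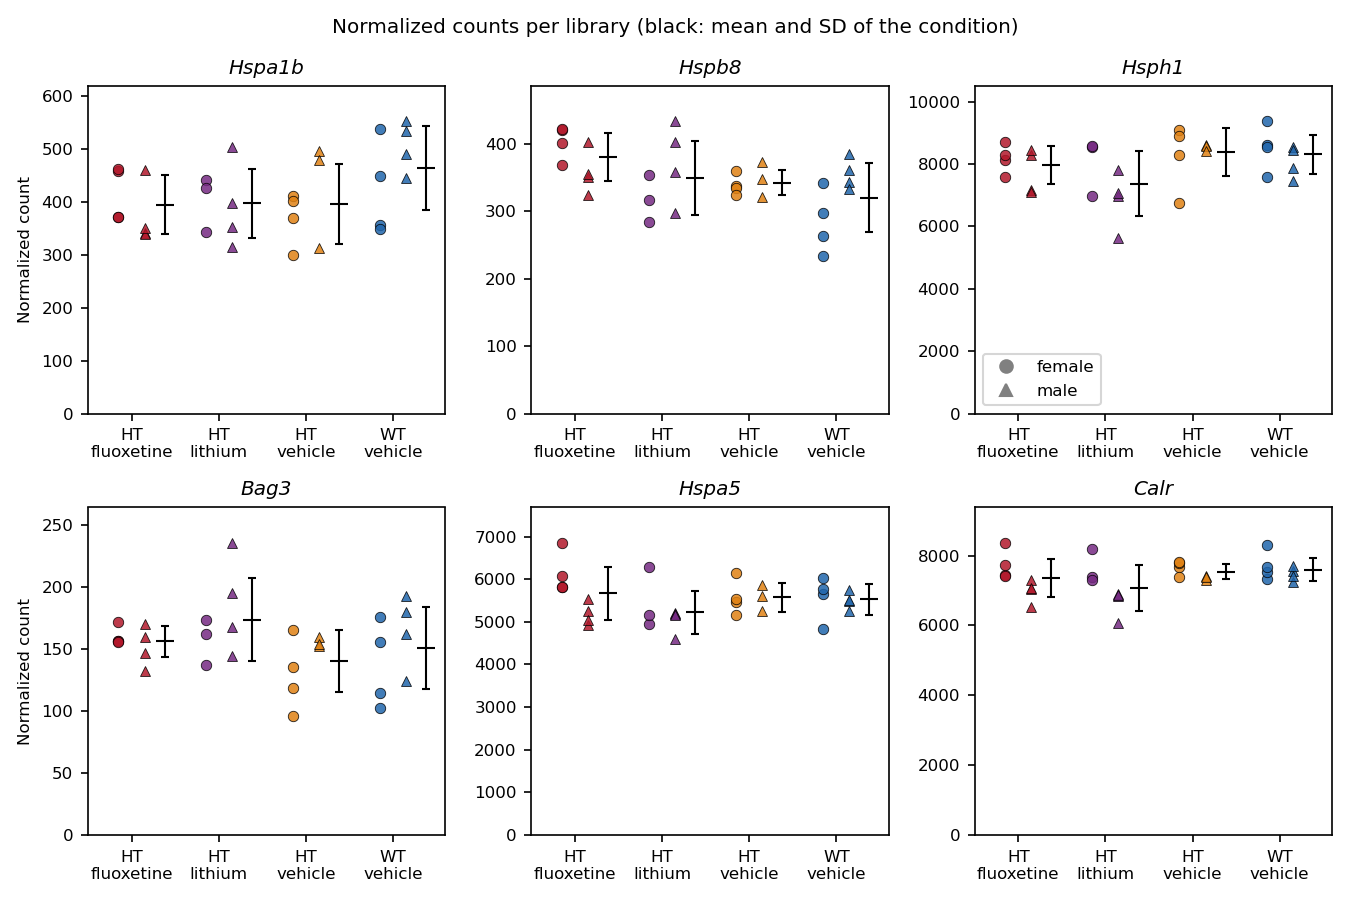
Normalized counts of 6 genes in each library (circles female, triangles male) by condition, from 0 upwards, with the mean and SD of each condition in black. The conditions overlap in every panel; HT fluoxetine females lie above WT vehicle females for Hspb8, and HT lithium male 4 is lowest for Hsph1, Hspa5 and Calr and highest for Bag3.

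When each sex was tested alone, 1 call arose. Hspb8 (chromosome 5, 116408491 to 116422864, minus strand), a small heat shock protein that works with Bag3, had 401.1, 420.4, 423.1 and 368.4 counts in the HT fluoxetine females and 263.5, 342.4, 234.1 and 297.7 in the WT vehicle females. The groups did not overlap, as held for 3 of the 44 genes (Hspb1, Hspb8 and Hsf1, all higher) and for 6.03% of all tested genes in this comparison. Hspb8 rose in HT fluoxetine females relative to WT vehicle females, by 0.51 (95% interval 0.30 to 0.73) on the log2 scale, adjusted p = 0.012 in limma, 0.0134 in edgeR and 0.00111 in DESeq2, where limma called 0.802% of all genes. The limma call was lost without WT vehicle female 1 (0.48, adjusted p = 0.0548) or 3 (0.43, adjusted p = 0.0696). In males Hspb8 had 403.7, 324.9, 351.1 and 355.8 counts in HT fluoxetine and 343.1, 385.5, 333.1 and 362.2 in WT vehicle libraries, a log2 fold change of 0.0094 (95% interval -0.21 to 0.22). The female value exceeded the male value by 0.50 (95% interval 0.20 to 0.81), adjusted p = 0.481, which missed the threshold. Within HT females the fluoxetine value against vehicle was 0.25 (95% interval 0.033 to 0.46), adjusted p = 0.997. HT vehicle against WT vehicle females gave 0.27 (95% interval 0.05 to 0.48), adjusted p = 0.732. Meningeal fibroblast markers summed to 34429, 21434, 30044 and 22201 in the HT fluoxetine females and 17548, 29225, 13671 and 16670 in the WT vehicle females, and their part in this result was not tested.

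The other comparisons within a sex had 0 of 44 called by limma and edgeR. The shares of all genes that limma called, in females and males, were 0.256% and 0.226% for genotype and 0% and 0.0178% for fluoxetine. They were 0% and 0.0773% for lithium, 0.208% and 1.4% for lithium against WT vehicle, and 0.0178% and 0% between the drugs. In males alone it was 0.428% for fluoxetine against WT vehicle. DESeq2 added Hsf1 in females for fluoxetine against WT vehicle (adjusted p = 0.0488; limma 0.19, adjusted p = 0.0978) and Calr in males for lithium against WT vehicle (adjusted p = 0.0346; limma -0.17, adjusted p = 0.0852). At an unadjusted p under 0.05 limma had 2 of 44 in each sex for genotype, against 5.17% of all genes in females and 4.32% in males. For fluoxetine it had 5 in females and 2 in males, against 3.85% and 4.07% of all genes. For lithium it had 0 in females and 9 in males, against 3.55% and 13.8%.

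In lithium-treated males the 9 genes below an unadjusted p of 0.05 were Hsph1 (-0.32, adjusted p = 0.295), Hsp90ab1 (-0.25, adjusted p = 0.322), Hspa8 (-0.20, adjusted p = 0.337), Calr (-0.14, adjusted p = 0.322), Trib3 (-0.80, adjusted p = 0.33) and the glutathione-degrading Chac1 (-0.24, adjusted p = 0.334), all below 0. The others were Dnajb5 (0.25, adjusted p = 0.316), Ern1 (0.26, adjusted p = 0.316) and Dnajc3, the PERK inhibitor P58IPK (0.13, adjusted p = 0.351), all above 0. Hsph1 had 6981, 7799, 7069 and 5633 counts in HT lithium males and 8606, 8586 and 8432 in HT vehicle males, with no overlap. Hsp90ab1 had 31207, 34377, 30863 and 27736 in HT lithium males and 37578, 34866 and 37831 in HT vehicle males, again apart. Over the 44 genes, 9 had every HT lithium male below every HT vehicle male and 1 the reverse, where 10% of all genes did not overlap. Without HT lithium male 4, which had the highest olfactory bulb and meningeal marker sums, 4 of 44 genes had an unadjusted p under 0.05, against 6.51% of all genes.

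The direct test of female minus male effects had 0 of 44 called by limma, edgeR and DESeq2 for genotype (0% of all genes), fluoxetine (0%) and lithium (0%). Below an unadjusted p of 0.05 limma had 1, 4 and 7 genes, edgeR 1, 5 and 7, and DESeq2 1, 3 and 9, where limma had 2.05%, 5.96% and 10% of all genes. For genotype the gene was Hsf1, 0.28 (95% interval 0.12 to 0.43), adjusted p = 1. It had 1066, 996.8, 1083 and 1139 counts in HT vehicle females, against 986.1, 927.3, 944.3 and 1036 in WT vehicle females. In males it had 993.4, 905.5 and 1048 in HT vehicle and 1047, 1048, 1154 and 1070 in WT vehicle libraries. For fluoxetine the genes were Sdf2l1 (0.40, adjusted p = 0.779), Creld2 (0.27, adjusted p = 0.779), Hspa5 (0.24, adjusted p = 0.779) and Trib3 (0.95, adjusted p = 0.779), all ER genes. Positive differences were the more frequent under both drugs, which share their HT vehicle libraries. With fluoxetine 17 of 21 heat shock and 17 of 23 ER genes had one, with medians of 0.083 and 0.078, against 0.0009 and 50.2% positive over all genes. With lithium 16 and 19 had one, with medians of 0.136 and 0.086, against 0.0004 and 50.1%. The lithium counts were 15 and 13, and the medians 0.084 and 0.007, without HT lithium female 1. They were 13 and 16, with medians of 0.104 and 0.057, when HT vehicle male 2 was dropped. For fluoxetine that drop gave 18 and 15, with medians of 0.067 and 0.062. Leaving out both HT vehicle female 1 and HT lithium male 4 gave fluoxetine 16 and 17, with medians of 0.048 and 0.053. Many of these genes varied together between libraries, as described below, so their signs are not independent. The counts were not tested.

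Within groups, many of the genes varied together with Hspa5 or Hsph1. The pairs tested were set by the design: Hspa5 with ER genes, Hsph1 and Hspa1a with heat shock genes, and Hspa5 with Hsph1. After each group's mean was subtracted, 62 pairs were examined over the 30 libraries with permutation tests, and Pearson's r passed an adjusted p of 0.05 in 20 of them. Hspa5 varied with Pdia6 (r = 0.67, rho = 0.59), Pdia4 (r = 0.66, rho = 0.62), Manf (r = 0.66, rho = 0.64), Calr (r = 0.63, rho = 0.55), Xbp1 (r = 0.61, rho = 0.53), Dnajb11 (r = 0.58, rho = 0.53), Sdf2l1 (r = 0.56, rho = 0.54) and Dnajc3 (r = 0.47, rho = 0.51), 8 of its 22 ER pairs. For Hspa5 and Pdia4 the full values were Pearson's r = 0.66, Spearman's rho = 0.62, adjusted permutation p = 0.0129 and 0.0141, r = 0.55 without the 2 outermost libraries. Of the 6 other genes with the ER stress element, 3 passed (Pdia6, Calr and Dnajc3) and 3 did not (Creld2, r = 0.51, Hsp90b1, r = 0.46, and Canx, r = 0.32). Hsph1 followed Hspa12a (r = 0.91, rho = 0.86), Hsp90ab1 (r = 0.89, rho = 0.88), Hspa8 (r = 0.86, rho = 0.80), Hspa4 (r = 0.83, rho = 0.77), Hspd1 (r = 0.80, rho = 0.82), Dnaja1 (r = 0.76, rho = 0.68), Hsp90aa1 (r = 0.68, rho = 0.64), Hspa9 (r = 0.62, rho = 0.55) and Cryab (r = 0.60, rho = 0.65). It ran opposite to Hspb8 (r = -0.56, rho = -0.59). It also ran opposite to Bag3, in Pearson's r alone (r = -0.55, rho = -0.47, adjusted permutation p = 0.0453 and 0.0925, r = -0.38 without the 2 outermost libraries). For Hsph1 and Hsp90ab1 the full values were Pearson's r = 0.89, Spearman's rho = 0.88, adjusted permutation p = 0.000155 and 0.00031, r = 0.88 without the 2 outermost libraries. Hspa5 and Hsph1 themselves did not pass as a pair (Pearson's r = 0.17, Spearman's rho = 0.07, adjusted permutation p = 0.567 and 0.808, r = 0.15 without the 2 outermost libraries). Other pairs of a heat shock and an ER gene were not tested. Among ER genes, r with Hsph1 was furthest from 0 for Hyou1 (0.731), Ern1 (-0.686), Canx (0.672), Chac1 (0.634) and Calr (0.567). Genes that varied with Hsph1 were thus not confined to the heat shock group. Of the 19 partners of Hspa1a only Hspa1b, the gene with which it shares sequence, passed in Pearson's r (r = 0.81). In Spearman's rho, Hspa8 (rho = 0.55, adjusted permutation p = 0.031) and Hspa9 (rho = 0.5, adjusted permutation p = 0.0301) passed with it too. Over all pairs the median r was 0.16 among heat shock genes (210 pairs), 0.23 among ER genes (253) and 0.20 between the groups (483), against -0.002 over all tested genes. All 20 pairs kept their sign without the 2 libraries outermost in the first gene; the libraries of a pair share their tissue piece and size factor.

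**Figure D5:**
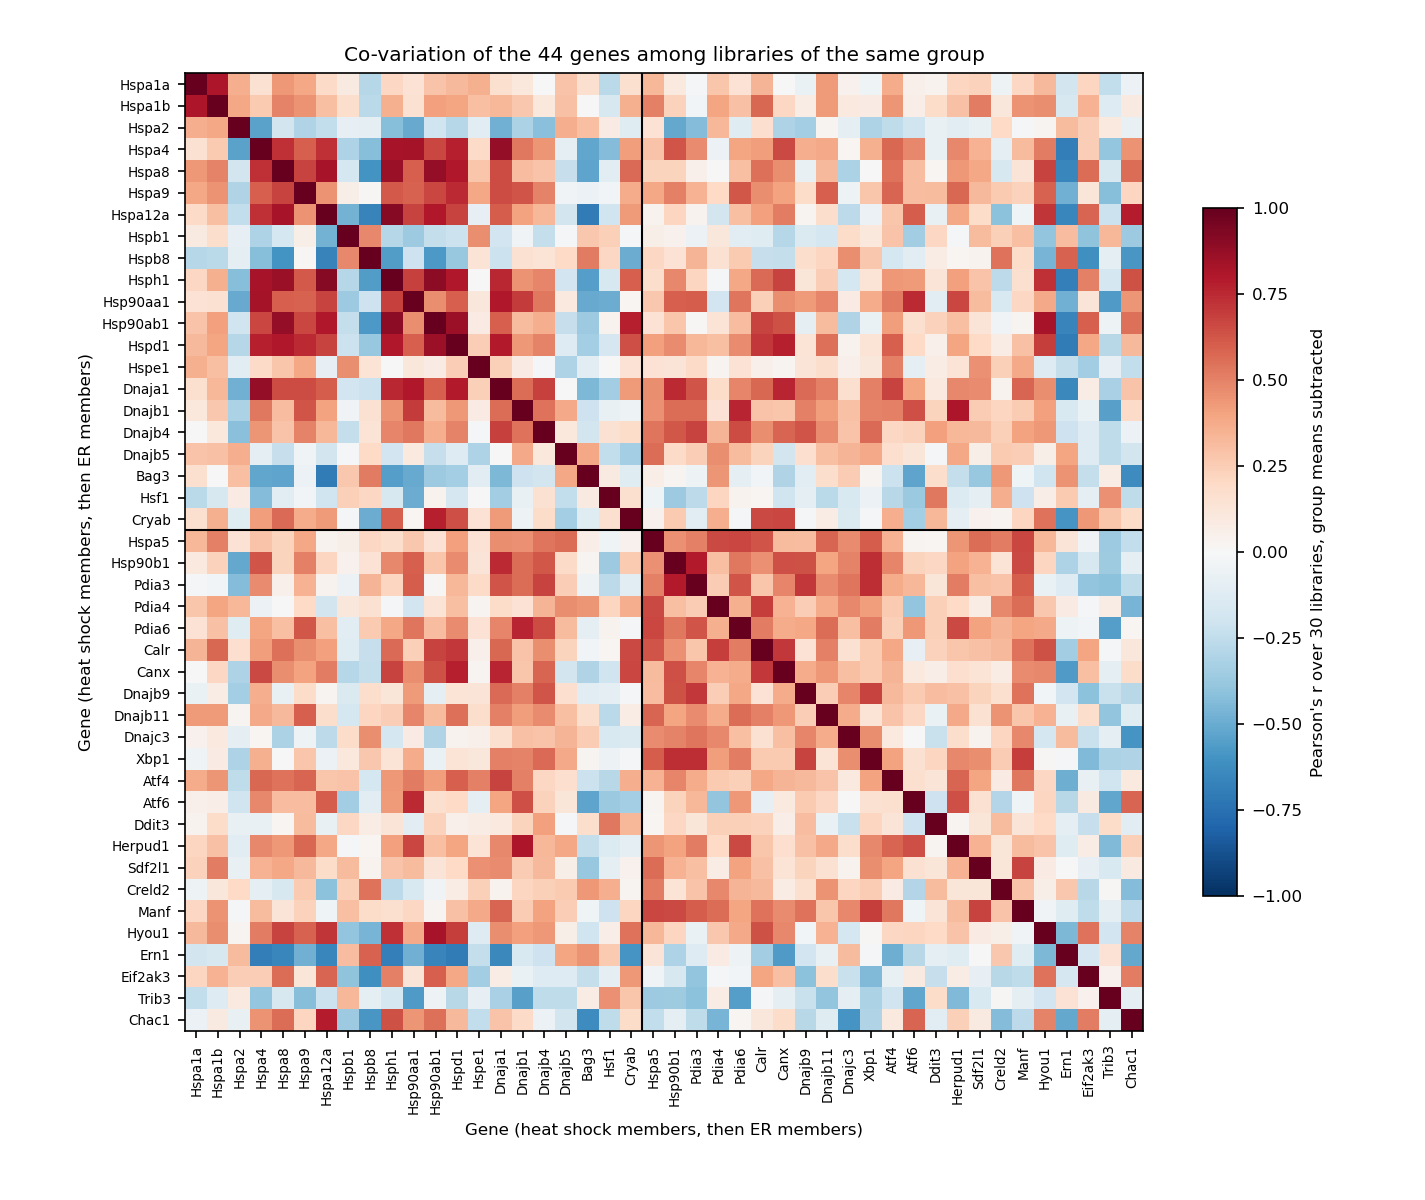
Pearson correlations of log2 normalized counts between the 44 genes over 30 libraries after subtraction of each group's mean (red positive, blue negative), heat shock genes first, then ER genes. A block of positive values joins Hsph1, Hspa12a, Hsp90ab1, Hspa8 and Hspa4, and another joins Hspa5 with Pdia6, Pdia4, Manf and Calr. The ER genes Hyou1, Canx, Chac1 and Calr are also positive with Hsph1, and Ern1 is negative with it.

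Several variable heat shock genes followed markers of other cell types. These relations, 78 between 6 genes and 13 marker lists, were chosen after the values were seen, and 18 passed in Pearson's r. Hspa1b passed with immediate early genes in Spearman's rho alone (r = 0.4, rho = 0.52, adjusted permutation p = 0.0895 and 0.0332). Most of the 6 genes passed with several lists, so a relation is not particular to 1 cell type. Cryab varied with the summed oligodendrocyte markers (Pearson's r = 0.97, Spearman's rho = 0.96, adjusted permutation p = 0.00026 and 0.00039, r = 0.96 without the 2 outermost libraries). It also passed with striatal neuron (r = 0.86), oligodendrocyte precursor (r = 0.77) and inhibitory neuron markers (r = 0.74). Negative relations of Cryab were those with endothelial and mural (r = -0.69), astrocyte (r = -0.62), meningeal fibroblast (r = -0.58) and microglia markers (r = -0.56). Hspa12a ran opposite to meningeal fibroblast markers (Pearson's r = -0.82, Spearman's rho = -0.76, adjusted permutation p = 0.00078 and 0.00267, r = -0.82 without the 2 outermost libraries). It also ran opposite to astrocyte (r = -0.81), endothelial and mural (r = -0.80) and olfactory bulb markers (r = -0.74), and with cortical excitatory neuron markers (r = 0.72). Bag3 followed olfactory bulb and neuroblast markers (Pearson's r = 0.74, Spearman's rho = 0.75, adjusted permutation p = 0.000975 and 0.00117, r = 0.66 without the 2 outermost libraries). Its other relations that passed were those with cortical excitatory neuron markers (r = -0.56) and, in Pearson's r alone, astrocyte markers (r = 0.64, rho = 0.55, adjusted permutation p = 0.0153 and 0.0568). Hspb1 ran opposite to cortical excitatory neuron markers (Pearson's r = -0.48, Spearman's rho = -0.53, adjusted permutation p = 0.0317 and 0.0316, r = -0.43 without the 2 outermost libraries). It went with meningeal markers in Pearson's r alone (Pearson's r = 0.52, Spearman's rho = 0.46, adjusted permutation p = 0.0317 and 0.112, r = 0.44 without the 2 outermost libraries). 

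The wider pathways gave the same count by limma. Of 45 other cytosolic and mitochondrial chaperone genes, 38 other ER folding and unfolded protein response genes and 30 other integrated stress response genes, 0 were called by limma in any of the 6 sex-averaged comparisons. At an unadjusted p under 0.05, HT vehicle against WT vehicle had 1 of 45, 0 of 38 and 2 of 30, against 6.6% of all genes. The smallest p-values were those of Shmt2 (-0.11, adjusted p = 0.446) and Wars (-0.08, adjusted p = 0.617). Fluoxetine had 3, 1 and 1, against 2.63% of all genes. They were led by Hsf4 (0.19, adjusted p = 1), a heat shock factor, and Atf3 (0.72, adjusted p = 1), a stress-induced factor that is also an immediate early gene. Lithium had 0, 1 and 7, against 5.72% of all genes, and the integrated stress response list alone stood above that share. They were led by Ppp1r15a (0.23, adjusted p = 0.471), the GADD34 phosphatase subunit that reverses eIF2 phosphorylation, and Ddit4 (-0.20, adjusted p = 0.534), an inhibitor of mTORC1. Against WT vehicle, fluoxetine was led by Wars (-0.13, adjusted p = 0.0529) and Dnajc1 (0.18, adjusted p = 0.0995), and lithium by Eif2ak2 (0.38, adjusted p = 0.0564), the kinase PKR, and Syvn1 (-0.11, adjusted p = 0.0623), an ER ubiquitin ligase. Between the drugs Syvn1 (0.12, adjusted p = 0.39) and Fkbp5 (0.22, adjusted p = 0.474), an HSP90 co-chaperone, came first. The counts below an unadjusted p of 0.05 were 4, 3 and 7 for fluoxetine against WT vehicle, against 12.1% of all genes. For lithium against WT vehicle they were 5, 5 and 8, against 17.7%, and between the drugs 2, 2 and 1, against 6.86%. In both WT vehicle comparisons the integrated stress response list stood above the share of all genes, and the other lists stood below it. Of the genes in these lists edgeR called 1, Wars in fluoxetine against WT vehicle. DESeq2 called the same gene there and Eif2ak2 and Syvn1 in lithium against WT vehicle.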

How the data were processed

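Per the labels' protocols, stranded mRNA libraries were made from prefrontal cortex, 30 in all, in 8 groups of 3 or 4 by genotype, treatment and sex. The submitters' processing notes name Salmon 0.11.2, R 3.6.0, DESeq2 1.19.11 and GRCm38. The authors deposited 1 table of gene counts divided by a size factor per library, unit signal; 100% of values came out as whole reads within 0.01 of a read, and recovered reads entered count tests as alternatives. Replicates were compared for duplicates: 42 pairs within groups differed beyond counting noise (chi-square per degree of freedom 4.57 to 30.1). Gene symbols came from GENCODE M21 for 18227 genes, and 13 had none.

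Normalized counts were tested as log2(value + 1) with limma 3.58.1 (trend, robust, R 4.3.3) over 8 group means with 22 residual degrees of freedom, for 16824 genes with a mean of at least 10, with Benjamini-Hochberg adjustment over all of them. Fold changes on that scale understate changes of low genes. The fit was tested on simulated data. Alternatives were edgeR 4.0.16 and DESeq2 1.42.0 on recovered reads, TMM scaling, pseudocounts of 0.5 and 5, no filter, a mean of at least 50, the compared groups alone, a replicate block, each library left out, and 2 libraries left out together. Intervals cover 95%. Correlations used 100000 permutations of libraries within groups; the smallest p they can give is 1e-05. Promoter windows came from RefSeq GRCm38.p6.

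Replicate numbers were not taken as pairs. Same-numbered deviations correlated between -0.43 and 0.446, and were all above 0.1 only in genotype males (0.17 to 0.278). In fluoxetine females they were 0.413, -0.108, 0.392 and 0.446. With groups of 3 or 4 libraries this check cannot exclude a pairing. It used the replicate numbers, as did the replicate block. In HT lithium females these do not all match the numbers in the library names.

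Named were 24 genes throughout, every called gene, the 4 smallest p-values per gene group and comparison, and the 2 smallest per comparison of the other lists. The members and lists were chosen with earlier results of these data known. Protein sequences were not used here.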

Additional observations from a re-analysis of the deposited data

Results flagged for a closer look

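Among 264 sets of 4 libraries, 1 per gene and group, 15 held 1 library whose gap to its nearest neighbour exceeded Dixon's critical share of 0.829 of the range. Chance flags about 1 in 20 such sets, close to the share flagged here. A flag below is therefore a description and does not by itself set a library apart. In HT lithium male 4, Hspa5 was low at 4603 (others 5171 to 5202), Calr at 6067 (6848 to 6891) and Canx at 6781 (7198 to 7264). In HT lithium male 3, Xbp1 was high at 1791 (1545 to 1556) and Dnajb9 at 1008 (898.8 to 909.6). In HT lithium male 2, Dnajc3 was low at 1350 (1487 to 1500). In HT fluoxetine female 4, Hspa1a was high at 509.8 (428.6 to 438.0) and Bag3 at 171.8 (155.7 to 156.8). Hspa8 was low at 51360 in HT fluoxetine female 1 (55310 to 55800), and Herpud1 was high at 1572 in female 3 (1323 to 1350). In HT fluoxetine males, Hspa1b was high at 460.5 in male 2 (338.4 to 351.1) and Hsf1 at 1107 in male 1 (1025 to 1036). Hspa4 was low at 6359 in HT vehicle female 1 (7166 to 7191). In WT vehicle female 2, Dnaja1 was low at 7955 (8524 to 8578) and Canx at 7374 (7659 to 7676).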

How the results depend on the processing

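The count of 0 called genes held under every alternative run for both gene groups in the sex-averaged comparisons, except that for heat shock genes in fluoxetine against WT vehicle DESeq2 called 1 and leaving out 1 library gave 0 to 1: Hspb8 passed without HT lithium male 2 (0.26, adjusted p = 0.0432) or WT vehicle female 2 (0.31, adjusted p = 0.0228), the cause not tested. Within each sex DESeq2 called 3 and leaving out 1 library gave 0 to 1. Hspb8 in females was called in 38 of 40 alternatives, with log2 fold changes of 0.43 to 0.61 and adjusted p from 0.00111 to 0.0696. Many of these leave out a library of a group not compared, which keeps the log2 fold change at 0.51 and tests the call little. The limma call was lost without WT vehicle female 1 (adjusted p = 0.0548) or 3 (adjusted p = 0.0696), both libraries of the groups compared. Under the replicate block the adjusted p of Hspb8 was 0.0223, and the block changed no call among the 44 genes. Leaving out 1 library moved the sum of Hspa1a and Hspa1b over -152 to -57.1 counts for genotype, -47.8 to 47.1 for fluoxetine and -65.4 to 29.5 for lithium. Over all genes, called counts moved beyond 1.5 times with a mean of at least 50 (genotype 68 for 123, fluoxetine against WT vehicle 165 for 251), with the compared groups alone (fluoxetine 11 for 6, lithium 5 for 15, lithium against WT vehicle 208 for 332) and with DESeq2 (fluoxetine 12, between drugs 13 for 0). They also moved with 1 library left out: fluoxetine to 3 without any 1 of 8 libraries (HT fluoxetine female 2 or 4, male 2 or 4, HT vehicle female 2 or 4, male 1 or 2) and to 13 without HT lithium female 1. Without that last library lithium had 8 and between drugs 4. Lithium had 9 without HT lithium male 3, and lithium against WT vehicle had 503 when HT lithium male 2 was dropped, 219 when WT vehicle female 3 was and 196 when HT lithium female 3 was. Of 264 uncalled log2 values, 104 changed sign under some alternative, each with a main p of at least 0.394. Trib3, with 6.85 to 21.8 counts, had the widest intervals.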
